A study of Mus musculus with 2 samples.

Results

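The genes described here are 31 genes of embryonic macrophages, chosen by symbol from the 24062 genes counted in the series. The list gave 32 names, of which Adgre1 and Emr1 are the same gene, present in the counts as Emr1, and all 31 genes had a row. RNA was sequenced from CD31+ KITint cells of the aorta of C57BL6 mouse embryos at embryonic day 11. In the labels these cells are named haematopoietic progenitor cells (HPCs). CD31 is a surface protein of endothelium and early blood cells, and KIT is the receptor of stem cell factor, for which cells of intermediate level were taken. All cells came from embryos with Gata2Venus, a fluorescent reporter of the blood transcription factor gene Gata2. The sort on Venus set the groups, with 1 library from Gata2Venus-negative and 1 from Gata2Venus-positive cells. The number of embryos behind a library is not given in the sources used here. The question was how progenitors without and with the reporter differ in these genes.

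Macrophages are the first resident immune cells of the embryo, and those of the aorta region lie close to the emerging blood stem cells. They bind and engulf dying cells, opsonised particles and modified proteins through scavenger receptors, Fc receptors and receptors for phosphatidylserine. Their Fc receptors and TREM2 signal through the small adaptors FcRγ (Fcer1g) and DAP12 (Tyrobp), whose ITAM motifs recruit the kinase SYK once SRC family kinases have phosphorylated them. They also secrete the complement starter C1q and lysozyme, and a membrane NADPH oxidase with cytosolic subunits makes superoxide in their phagosomes. Several genes of the list are shared with other cells: Axl, Gas6, Mertk and Cyba are also made by vascular, mesenchymal or epithelial cells, and Coro1a, Dock2, Laptm5 and Lyn by most leukocytes.

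The libraries held 10135400 counts in genes for Gata2Venus-negative and 9715131 for Gata2Venus-positive cells. Levels are in CPM, that is counts set to a common total after TMM scaling, and ratios are Gata2Venus-negative over Gata2Venus-positive on a log2 scale. With 1 library per group there is no replicate check, no test between conditions and no p-value, and each comparison is of these libraries. The 95% intervals, exact Poisson for a level and exact binomial (Clopper-Pearson) for a ratio, cover counting error only. These intervals can be too narrow, because PCR copies of a molecule may have been counted as separate reads. A gene was past the rule of size under 3 conditions: a level of 10 CPM or more and a count of 50 or more in its higher library, and a ratio whose whole interval lay beyond 2-fold. Genes with at least 20 counts over both libraries are called measured. As a check of the labels, Gata2 was at 13.5 CPM in Gata2Venus-negative and 70.2 CPM in Gata2Venus-positive cells. Pecam1, which encodes CD31, was at 537 and 489 CPM in the same order. Kit was at 199 CPM in Gata2Venus-negative and 60.7 CPM in Gata2Venus-positive cells, past the rule and higher (log2 ratio 1.71, interval 1.58 to 1.85). The labels name both groups KITint, so Kit RNA did not match a shared level, and the cause was not tested.

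Most of the macrophage genes were lower in Gata2Venus-negative than in Gata2Venus-positive cells, while the receptors Cd14, Mertk and Axl and the NADPH oxidase subunits Cyba and Ncf4 had values at or above those of Gata2Venus-positive cells. Of 28 measured members 16 were past the rule and lower in Gata2Venus-negative cells, 1 was past it and higher, and 11 were not past it. Over all 12544 measured genes, 12.3% were lower and 12.6% higher by the same rule. Of the 10381 genes that met the limits of CPM and counts, 14.9% were lower and 15.2% higher, and 25 members met these limits. The median log2 ratio of the 28 members was −1.89, and −1.90 with 0 counts set to 3, beside −0.01 for all measured genes. The ratio was below 0 for 23 of the 28, beside 50.4% of all measured genes. Summed over the 31 members, the level was 660 CPM in Gata2Venus-negative and 1755 CPM in Gata2Venus-positive cells. In bulk RNA, fewer cells of a type and less RNA per cell cannot be told apart. The members not measured were Cd163, with 0 counts in Gata2Venus-negative and 1 in Gata2Venus-positive cells, and Lyz1 and Fcgr2b, with 0 counts in both. Where a gene had 0 counts in 1 library, its fold was given with 0 set to 3 counts. That is 0.288 CPM in the Gata2Venus-negative and 0.317 CPM in the Gata2Venus-positive library. The exact interval of 0 counts reaches 0.354 and 0.390 CPM in the same order, so such a fold is not a lower bound.

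**Figure D1:**
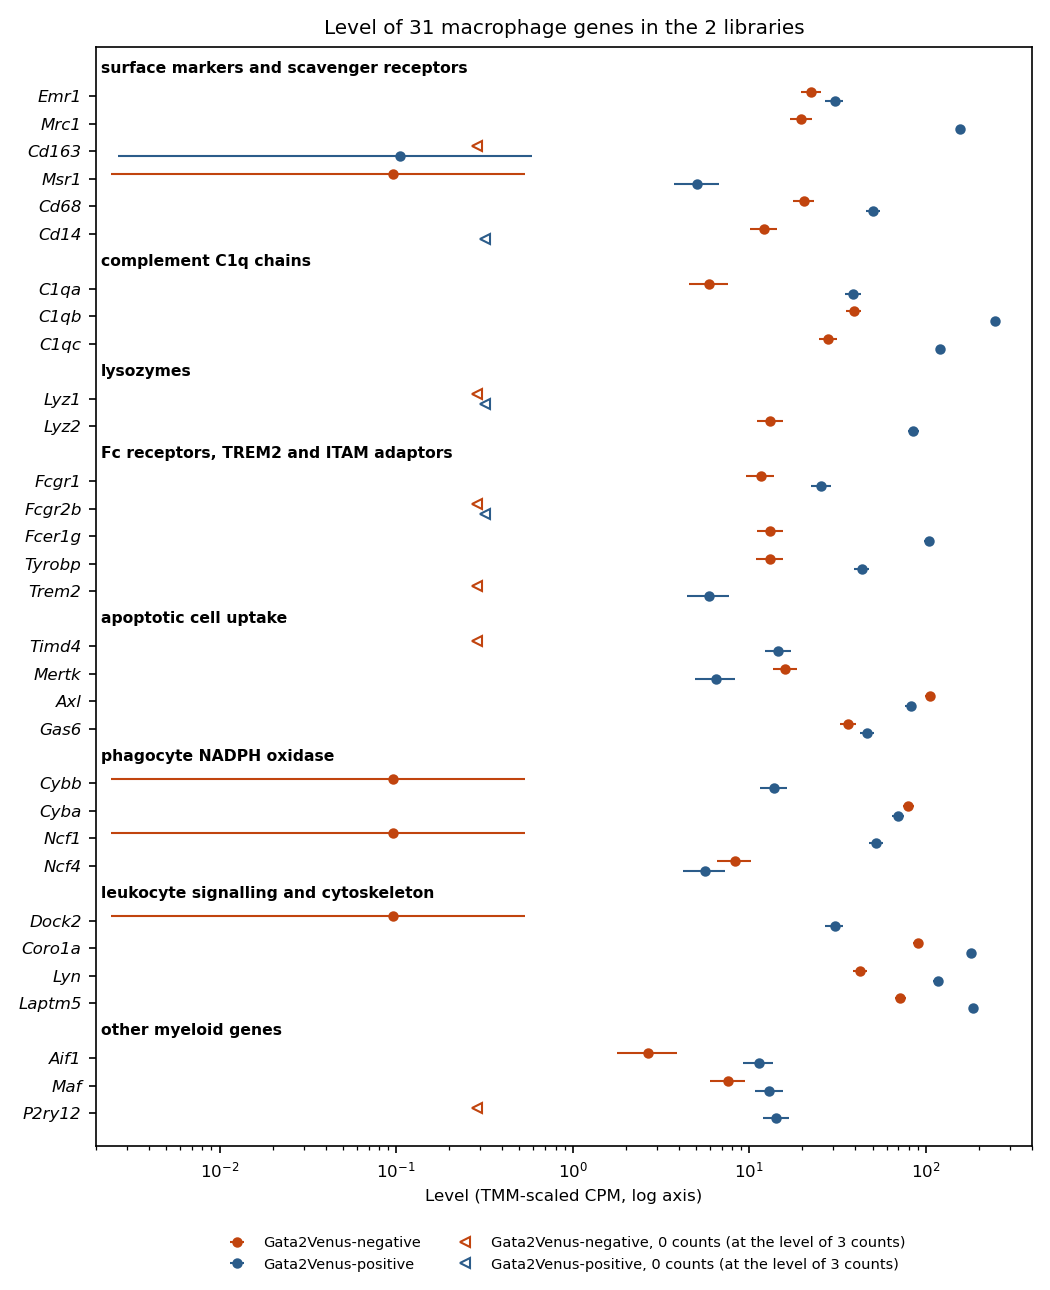
Level of each of the 31 macrophage genes (TMM-scaled CPM, log axis) in the Gata2Venus-negative (red) and Gata2Venus-positive (blue) library, grouped by role. Bars are exact 95% Poisson intervals, and open triangles mark 0 counts, drawn at the level of 3 counts (0.288 and 0.317 CPM). Most red points lie left of the blue ones, while Cd14, Mertk, Axl, Cyba and Ncf4 lie to the right.

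**Figure D2:**
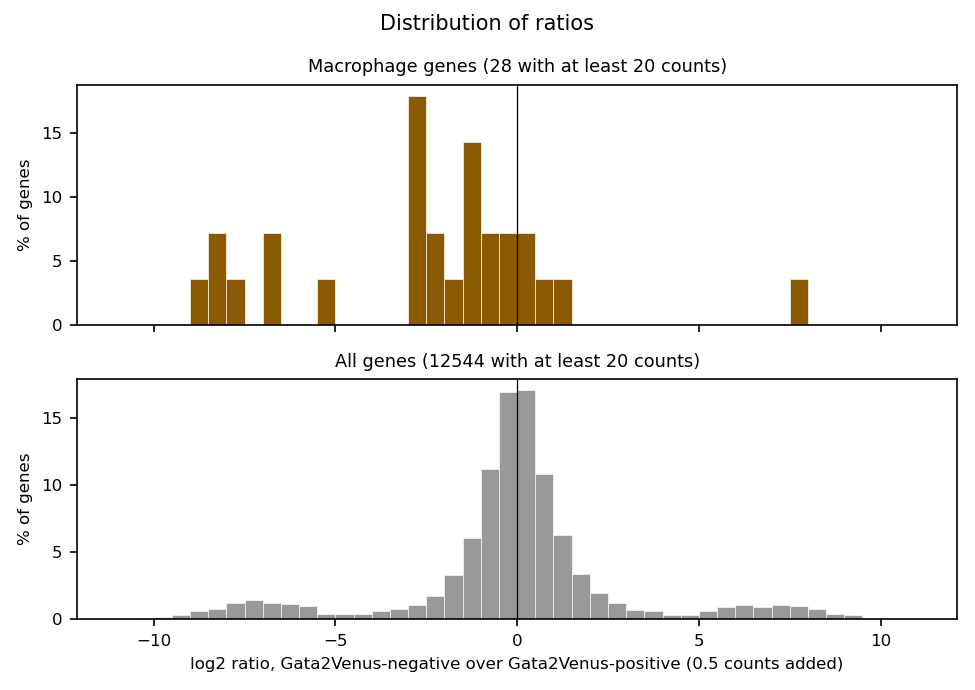
Share of genes (%) by log2 ratio of Gata2Venus-negative over Gata2Venus-positive, in bins of 0.5 with 0.5 counts added, for the 28 measured macrophage genes (top) and all 12544 measured genes (bottom). The macrophage genes have their median at −1.89 and all genes at −0.01, and outlying groups of genes near 0 counts in 1 library stand at both ends of the lower panel.

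The differences had 2 forms, a partial one and one in which a gene was near 0 in 1 library. Of the 16 members that were lower, 11 had more than 3 counts in both libraries, and the other 5 (Timd4, P2ry12, Cybb, Ncf1 and Dock2) had at most 1 count in Gata2Venus-negative against 130 to 494 in Gata2Venus-positive cells. Cd14 was the member with the opposite form. Genes with at most 3 counts in 1 library and at least 100 in the other were found in both directions over the whole table, at 3.78% of 10374 genes for those near 0 in Gata2Venus-negative and 3.87% for those near 0 in Gata2Venus-positive cells. Among the 25 members with 100 counts in either library there were 5 of the first kind and 1 of the second. Among genes with more than 3 counts in each library, 11 of 20 members were lower and 0 higher, beside 10.7% and 11.3% of all such genes, and the members' median log2 ratio was −1.34. With 1 library per group, a gene near 0 in a library has no second library to check it.

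Among surface markers and scavenger receptors, Mrc1 and Cd68 were lower in Gata2Venus-negative cells, Cd14 was higher, and Emr1 differed little. Mrc1 (chromosome 2, 14229392 to 14332057, mm10), the mannose receptor of tissue macrophages, had 205 counts (19.7 CPM, interval 17.1 to 22.6) in Gata2Venus-negative and 1471 counts (155.5 CPM, interval 147.7 to 163.7) in Gata2Venus-positive cells. That is 7.90-fold lower in Gata2Venus-negative cells (log2 ratio −2.98, interval −3.20 to −2.77). Emr1 (chromosome 17, 57358691 to 57483527), which encodes the classical mouse macrophage surface antigen, had 234 counts in Gata2Venus-negative and 288 in Gata2Venus-positive cells and stayed short of the rule (log2 ratio −0.44, interval −0.69 to −0.18). Per kilobase of exon, Mrc1 was below Emr1 in Gata2Venus-negative cells (3.09 and 6.94 CPM per kb) and above it in Gata2Venus-positive cells (24.4 and 9.40 CPM per kb). Cd68, a glycoprotein of lysosomes and endosomes, was at 20.4 CPM in Gata2Venus-negative and 50.1 CPM in Gata2Venus-positive cells, 2.46-fold lower (log2 ratio −1.30, interval −1.54 to −1.06). Msr1, a scavenger receptor for modified lipoproteins, had 1 count in Gata2Venus-negative and 48 in Gata2Venus-positive cells (log2 ratio −5.72, interval −11.06 to −3.18) and was short of 50 counts. Cd14, a co-receptor for bacterial lipopolysaccharide, had 126 counts (12.1 CPM) in Gata2Venus-negative and 0 in Gata2Venus-positive cells, 38.2-fold higher with 0 set to 3 counts. It was the only member past the rule in that direction.

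The 3 chains of C1q, the recognition molecule of the classical complement pathway, were all lower in Gata2Venus-negative cells. Their genes lie side by side on chromosome 4, from 136880129 for C1qb to 136898803 for C1qa, all on the minus strand. C1qa had 62 counts in Gata2Venus-negative and 368 in Gata2Venus-positive cells (log2 ratio −2.71, interval −3.12 to −2.32). C1qb had 408 counts in Gata2Venus-negative and 2331 in Gata2Venus-positive cells (log2 ratio −2.65, interval −2.81 to −2.50). C1qc had 291 counts in Gata2Venus-negative and 1144 in Gata2Venus-positive cells (log2 ratio −2.11, interval −2.30 to −1.93). The interval of C1qc lay apart from that of C1qb, while it nearly touched that of C1qa (−2.30 beside −2.32). Because these intervals can be too narrow, whether C1qc and C1qa differed in degree cannot be said. Per kilobase of exon, C1qb made up 64.1% of the 3 chains' level in Gata2Venus-negative and 69.4% in Gata2Venus-positive cells, C1qc 25.7% and 19.2% in the same order, and C1qa 10.2% and 11.5%. The chains assemble in equal numbers in the protein. Of the further complement genes, the proteases and components C1ra, C2, C3 and C4b had 0 counts in both libraries, the protease gene C1s1 had 0 in Gata2Venus-negative and 59 in Gata2Venus-positive cells, and the anaphylatoxin receptor gene C3ar1 was 7.52-fold lower in Gata2Venus-negative cells (163 counts against 1114).

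Lyz2, the lysozyme gene of macrophages and other myeloid cells, was at 13.2 CPM (137 counts) in Gata2Venus-negative and 85.1 CPM (805 counts) in Gata2Venus-positive cells, 6.47-fold lower (log2 ratio −2.69, interval −2.97 to −2.43). Its tandem copy Lyz1, best known from Paneth cells of the gut, had 0 counts in both. Of the stretches of 50 bases in Lyz2 transcripts, 15.4% also occur in Lyz1 transcripts, so a read from them could not be given to 1 gene, and 45.5% of all entries in the Gata2Venus-negative and 48.2% in the Gata2Venus-positive table were alignments that are not unique.

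The ITAM adaptors were lower in Gata2Venus-negative cells, while the gene of the kinase that they recruit, Syk, had a higher value there and was not past the rule. Fcer1g, the common γ chain of Fc receptors, had 137 counts in Gata2Venus-negative and 990 in Gata2Venus-positive cells, 7.95-fold lower (log2 ratio −2.99, interval −3.26 to −2.73). Tyrobp, which encodes DAP12, had 136 counts in Gata2Venus-negative and 410 in Gata2Venus-positive cells, 3.32-fold lower (log2 ratio −1.73, interval −2.02 to −1.45). Per kilobase of exon, Fcer1g was below Tyrobp in Gata2Venus-negative cells (15.1 and 19.6 CPM per kb) and above it in Gata2Venus-positive cells (119.8 and 65.0 CPM per kb). Fcgr1, the high-affinity IgG receptor, was at 11.6 CPM in Gata2Venus-negative and 25.5 CPM in Gata2Venus-positive cells and stayed short of the rule (log2 ratio −1.13, interval −1.46 to −0.81). Trem2, a lipid receptor that signals through DAP12, had 0 counts in Gata2Venus-negative and 56 in Gata2Venus-positive cells. That is 20.5-fold lower with 0 set to 3 counts, at a level under 10 CPM. Fcgr2b, the inhibitory IgG receptor, was at 0 in both, and 2.92% of its 50-base stretches are shared with Fcgr3. Outside the members, Fcgr3, an activating IgG receptor that needs the γ chain, had 25 counts in Gata2Venus-negative and 1053 in Gata2Venus-positive cells, 46.4-fold lower. Syk had 519 counts in Gata2Venus-negative and 309 in Gata2Venus-positive cells (log2 ratio 0.61, interval 0.40 to 0.82). Of 8 measured further Fc receptors and ITAM kinases 4 were lower and 1 was higher. The kinase gene Btk (1 count against 338), the lipid phosphatase gene Inpp5d (13 against 574) and the phosphatase gene Ptpn6 were lower with Fcgr3.

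The genes for uptake of apoptotic cells were split between Timd4 and the TAM receptors with their ligand. Timd4, a phosphatidylserine receptor that tethers dying cells and marks embryo-derived resident macrophages, had 0 counts in Gata2Venus-negative and 138 in Gata2Venus-positive cells. That is 50.6-fold lower with 0 set to 3 counts. Mertk, a TAM receptor kinase, had 166 counts (15.9 CPM) in Gata2Venus-negative and 61 counts (6.45 CPM) in Gata2Venus-positive cells, 2.47-fold higher and not past the rule, since its interval reached inside 2-fold (log2 ratio 1.31, interval 0.87 to 1.75). Axl, another TAM receptor kinase, had 1099 counts in Gata2Venus-negative and 779 in Gata2Venus-positive cells (log2 ratio 0.36, interval 0.22 to 0.49). Gas6, the ligand that bridges TAM receptors to phosphatidylserine, had 378 counts in Gata2Venus-negative and 440 in Gata2Venus-positive cells (log2 ratio −0.36, interval −0.56 to −0.16). These 3 genes were detected well in both libraries, and none of them was past the rule. The remaining TAM receptor and ligand genes, outside the members, were not lower either. Tyro3 was at 24.4 CPM in Gata2Venus-negative and 10.7 CPM in Gata2Venus-positive cells (log2 ratio 1.19, interval 0.85 to 1.54), and the ligand gene Pros1 was at 76.7 and 75.5 CPM in the same order. Of 9 measured further genes of this kind, Stab2 and Itgb3, receptors of endothelium and platelets among other cells, were past the rule and lower, and 0 were higher.

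In the NADPH oxidase, the catalytic subunit and the organiser were near 0 in Gata2Venus-negative cells, and the subunits Cyba and Ncf4 were not past the rule in either direction. Cybb (chromosome X, 9435252 to 9487771), which encodes the catalytic subunit, had 1 count in Gata2Venus-negative and 130 in Gata2Venus-positive cells (log2 ratio −7.16, interval −12.48 to −4.66). Ncf1 (chromosome 5, 134220053 to 134229625), the cytosolic organiser, had 1 count in Gata2Venus-negative and 494 in Gata2Venus-positive cells (log2 ratio −9.09, interval −14.39 to −6.60). Cyba (chromosome 8, 122424776 to 122432930), the membrane partner of the catalytic subunit, had 831 counts in Gata2Venus-negative and 662 in Gata2Venus-positive cells (log2 ratio 0.19, interval 0.04 to 0.34). Ncf4, a lipid-binding cytosolic subunit, had 86 counts in Gata2Venus-negative and 53 in Gata2Venus-positive cells (log2 ratio 0.56, interval 0.05 to 1.08), under 10 CPM in both. The GTPase gene Rac2 had 350 counts in Gata2Venus-negative and 713 in Gata2Venus-positive cells (log2 ratio −1.17, interval −1.35 to −0.98), not past the rule. Cyba also pairs with NOX4, an oxidase of vascular and other cells, and Nox4 had 0 counts in Gata2Venus-negative and 340 in Gata2Venus-positive cells. Ncf1 shares 408 exon bases with Gtf2ird2 on the opposite strand in GENCODE vM21, and whether counting used strand is not given in the sources used here.

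The leukocyte signalling and cytoskeleton genes were all lower in value in Gata2Venus-negative cells, by amounts from about 2-fold to near absence. Laptm5, a lysosomal membrane protein of blood cells, had 747 counts in Gata2Venus-negative and 1758 in Gata2Venus-positive cells, 2.59-fold lower (log2 ratio −1.37, interval −1.50 to −1.25). Lyn, a SRC family kinase of myeloid and B cells, had 441 counts in Gata2Venus-negative and 1103 in Gata2Venus-positive cells, 2.75-fold lower (log2 ratio −1.46, interval −1.62 to −1.30). Of its 50-base stretches, 13.4% also occur in Gm11787. Coro1a, an actin-binding protein of leukocytes, had 946 counts in Gata2Venus-negative and 1699 in Gata2Venus-positive cells and was not past the rule, with an interval that spans 2-fold (log2 ratio −0.98, interval −1.10 to −0.87). Dock2 (chromosome 11, 34226815 to 34783892), an activator of RAC in migrating leukocytes, had 1 count in Gata2Venus-negative and 288 in Gata2Venus-positive cells (log2 ratio −8.31, interval −13.62 to −5.82). It shares 460 exon bases with an antisense gene, 4930403D09Rik. Widely expressed relatives of these proteins were set beside them. Coro1b (log2 ratio 0.10), Coro1c (0.03), Laptm4a (0.07) and Dock1 (−0.22) differed little in value, Dock5 had 22 counts in Gata2Venus-negative and 72 in Gata2Venus-positive cells (log2 ratio −1.85, interval −2.61 to −1.14), under 10 CPM in both, and Fyn, a SRC family kinase like Lyn, had a log2 ratio of −0.95. Of 17 measured relatives of the members 15 met the limits of CPM and counts, and Dock5 and Maff (11 counts against 50) did not. Of those 15, 0 were lower and 1, Src, was higher, at 59.0 CPM in Gata2Venus-negative and 20.3 CPM in Gata2Venus-positive cells. The median log2 ratio of the 17 was −0.02.

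The remaining members were also lower in value in Gata2Venus-negative cells. Aif1, the actin-bundling protein used as a macrophage and microglia stain, had 28 counts in Gata2Venus-negative and 107 in Gata2Venus-positive cells, 4.21-fold lower (log2 ratio −2.07, interval −2.73 to −1.46). P2ry12, an ADP receptor of microglia and platelets, had 0 counts in Gata2Venus-negative and 135 in Gata2Venus-positive cells. That is 49.5-fold lower with 0 set to 3 counts. Maf, a transcription factor of resident macrophages that is also made in other lineages, had 79 counts in Gata2Venus-negative and 123 in Gata2Venus-positive cells and stayed short of the rule (log2 ratio −0.78, interval −1.20 to −0.36).

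**Figure D3:**
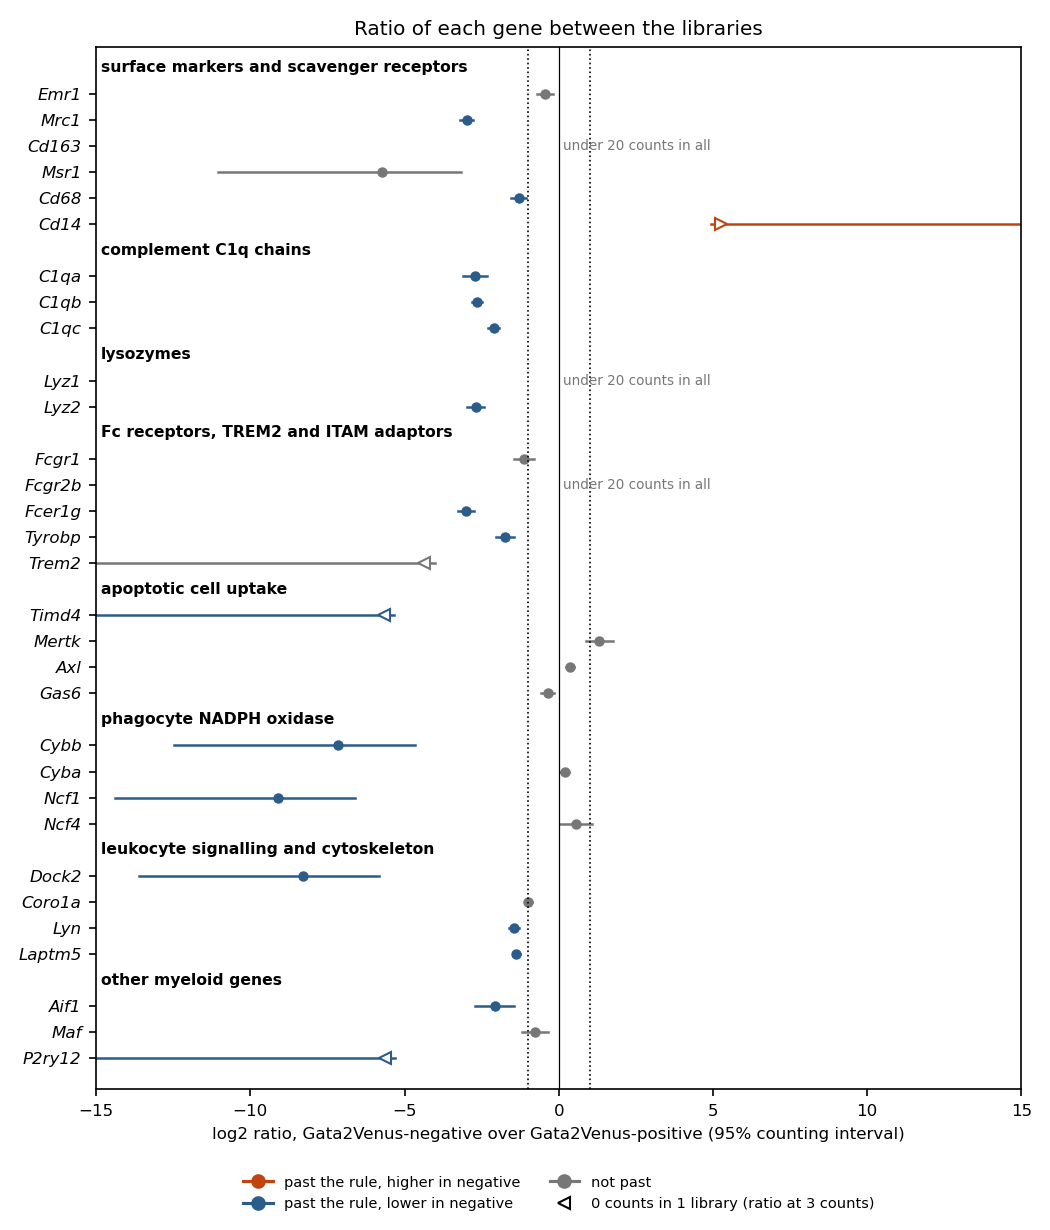
log2 ratio of Gata2Venus-negative over Gata2Venus-positive for each macrophage gene with its exact 95% counting interval. Blue genes were past the rule and lower in Gata2Venus-negative cells (16), the red gene, Cd14, was past it and higher, grey genes were not past it, and dotted lines mark 2-fold. Open triangles mark genes with 0 counts in 1 library, drawn with 0 set to 3 counts, and the lines of these genes run to the edge because their interval has no bound.

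Levels of different members were compared per kilobase of exon (CPM per kb). In Gata2Venus-positive cells C1qb led at 226.5 CPM per kb, followed by Fcer1g at 119.8, Cyba at 67.4, Tyrobp at 65.0, Lyz2 at 64.7 and Coro1a at 64.5. In Gata2Venus-negative cells Cyba led at 76.8 CPM per kb, followed by C1qb at 36.0, Coro1a at 32.6, Axl at 21.0, Tyrobp at 19.6 and Laptm5 at 18.9. C1qb thus ranked 1 in Gata2Venus-positive and 2 in Gata2Venus-negative cells, Cyba ranked 3 and 1, and Fcer1g 2 and 8 in the same order. Cyba, Tyrobp, Lyz2 and Coro1a were too close to be ordered in Gata2Venus-positive cells. SMARTER cDNA does not cover all transcripts evenly, so order per kilobase is approximate.

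Csf1r, the receptor that macrophages need to survive, is among several defining macrophage genes outside the members. It had 798 counts in Gata2Venus-negative and 1571 in Gata2Venus-positive cells (log2 ratio −1.12, interval −1.24 to −0.99) and was not past the rule. The members were also set beside it, a choice made after the values were seen. The ratio's interval lay wholly below that of Csf1r for 17 of the 28 measured members, overlapped it for 4 and lay above it for 7, beside 15.9% below and 72.8% above over all measured genes. Those above were Emr1, Cd14, Mertk, Axl, Gas6, Cyba and Ncf4. For each count of Csf1r there were 0.257 counts of Mrc1 in Gata2Venus-negative and 0.936 in Gata2Venus-positive cells. C1qb had 0.511 and 1.48 counts per Csf1r count in the same order, and Fcer1g 0.172 and 0.630. For Fcgr1 the number was close in both, at 0.152 in Gata2Venus-negative and 0.153 in Gata2Venus-positive cells, and for Axl it was 1.38 and 0.496. The members therefore did not keep a common ratio to Csf1r in the 2 libraries.

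Other macrophage genes, outside the members, were mostly lower or not past the rule. Of 20 measured further macrophage genes 11 were lower and 0 higher in Gata2Venus-negative cells, with a median log2 ratio of −1.39. Cx3cr1, the fractalkine receptor, had 3 counts in Gata2Venus-negative and 1150 in Gata2Venus-positive cells, the metal transporter gene Slc11a1 had 0 and 230 in the same order, and the scavenger receptor gene Cd36 had 1 and 180. Spi1, which encodes PU.1, the transcription factor required for macrophages, was at 29.4 CPM in Gata2Venus-negative and 80.4 CPM in Gata2Venus-positive cells (log2 ratio −1.45, interval −1.65 to −1.26). Of the genes fixed as defining macrophages, Csf1r, Emr1, Spi1 and Ptprc had counts in both libraries, Cx3cr1 had 3 in Gata2Venus-negative cells, and Itgam had 2 in Gata2Venus-negative and 0 in Gata2Venus-positive cells. Siglec1, Vsig4, Marco, Ccr2 and Ms4a7, genes of later or particular macrophages and monocytes, were at 0 in both.

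Markers of other cells differed between the libraries as well. Ptprc, which encodes the pan-leukocyte antigen CD45, had 194 counts in Gata2Venus-negative and 498 in Gata2Venus-positive cells (log2 ratio −1.50, interval −1.75 to −1.26), and of 17 measured pan-leukocyte genes 11 were lower and 0 higher, with a summed level of 634 CPM in Gata2Venus-negative and 1241 CPM in Gata2Venus-positive cells. Megakaryocyte and platelet genes were lower in 10 of 14 and summed to 160 CPM in Gata2Venus-negative and 685 CPM in Gata2Venus-positive cells, with Gp5, Gp1bb and Nfe2 at 0 in Gata2Venus-negative cells. Endothelial genes were lower in 10 of 16 and higher in 0, at 3306 CPM in Gata2Venus-negative and 6624 CPM in Gata2Venus-positive cells. Progenitor genes were lower in 8 of 13 and higher in 1, Kit, and summed to 827 and 1422 CPM in the same order. Those 8 include Gata2, whose reporter set the groups, and Ptprc, which is also counted among the pan-leukocyte genes. The list of mesenchyme and smooth muscle went the other way, higher in 9 of 16 genes and lower in 0, at 9059 CPM in Gata2Venus-negative and 5710 CPM in Gata2Venus-positive cells. Neutrophil granule genes were lower in 3 of 7 measured, at 109 CPM in Gata2Venus-negative and 373 CPM in Gata2Venus-positive cells, with Ltf, Camp, Ngp, Ctsg and Fcnb at 0 in both. Erythroid genes were lower in 4 of 9 measured and higher in 0, at 333 CPM in Gata2Venus-negative and 306 CPM in Gata2Venus-positive cells. Their ratio was below 0 for 6 of the 9 and above 0 for 3, the globin genes Hbb-y, Hbb-bh1 and Hba-x (log2 ratios 0.73, 0.89 and 1.18). None of these 3 was past the rule. Of 9 genes of mast cells and basophils 2 were measured and both were lower: Hdc, the histamine-forming enzyme, had 0 counts in Gata2Venus-negative and 269 in Gata2Venus-positive cells, and Slc18a2, a vesicular monoamine transporter, had 218 and 1027 in the same order. Of 11 lymphoid genes 2 were measured and 1 was lower, the B cell receptor component gene Cd79b, with 0 counts in Gata2Venus-negative and 161 in Gata2Venus-positive cells. Cpa3, of mast cells, and Cd3e, of T cells, were at 0 in both. The part of these differences in the macrophage gene values was not tested.

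**Figure D4:**
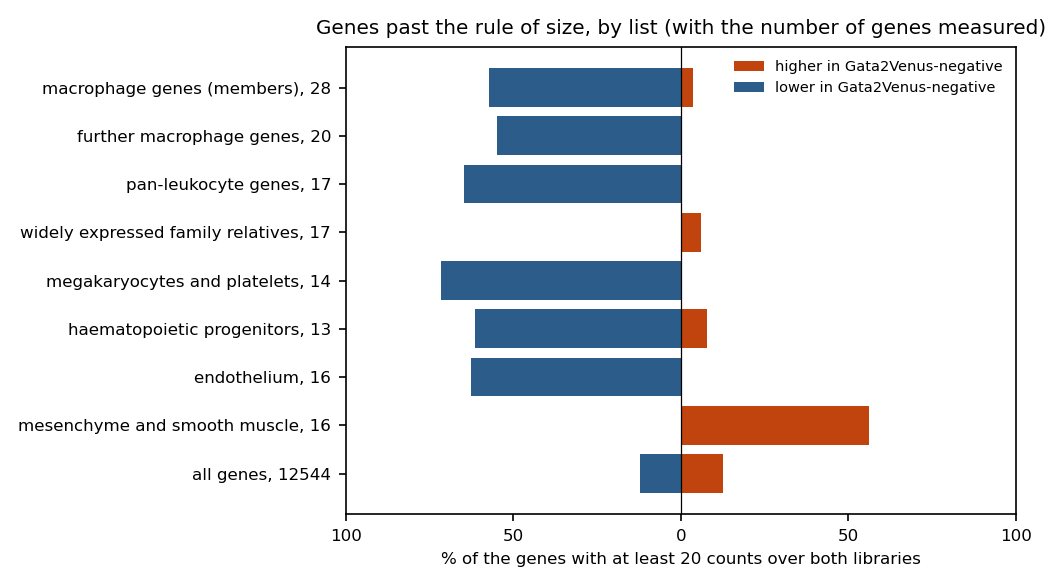
Share of measured genes (%) past the rule of size for the macrophage genes and other gene lists, with higher in Gata2Venus-negative cells drawn to the right in red and lower to the left in blue. The number after each list is its measured genes. The macrophage, further macrophage, pan-leukocyte, megakaryocyte, progenitor and endothelial lists lie wholly or mostly to the left, and mesenchyme and smooth muscle to the right. All genes are split at 12.3% lower and 12.6% higher.

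Sequences before the start of member genes were read because PU.1 is known to bind the letters GAGGAA in promoters of myeloid genes. For 23 of the 31 members RefSeq promoters (GRCm38.p6) were matched by symbol. At least 1 GAGGAA on either strand was found in the 250 bases before the start of 10 of the 23, beside 23.3% of all 32851 such windows, which include several starts for some genes. By outcome it was found for 7 of 13 members that were lower and for 3 of the 10 others, Axl, Fcgr1 and Trem2. Fcgr1 and Trem2 were also lower in value but short of the rule. Among the others without a match, Cd163, Lyz1 and Fcgr2b were not measured. The 10 others are therefore not a set of genes that stayed equal. TGTGGT, the letters of RUNX factors, was found for 3 of 23 (14.0% of all windows). TGANTCA, a loose form of the letters of AP-1 with any base at N, was likewise found for 3 (6.75%). In Cybb and Trem2 the base at N was A, while the letters of AP-1 have C or G there, as in Cd68. A match describes letters only and is not evidence of binding, and a window without one says nothing on the factor. The windows of 5 members are shown 5′ to 3′ on the strand of the gene, with GAGGAA or its reverse complement TTCCTC in capitals, to set 3 genes that were lower (C1qb, Dock2 and Ncf1) beside 2 that were near equal (Cyba and Axl). Each window ends at the base before the RefSeq start and holds 0 bases of GENCODE exons.
C1qb (chr4:136886201-136886450, minus strand): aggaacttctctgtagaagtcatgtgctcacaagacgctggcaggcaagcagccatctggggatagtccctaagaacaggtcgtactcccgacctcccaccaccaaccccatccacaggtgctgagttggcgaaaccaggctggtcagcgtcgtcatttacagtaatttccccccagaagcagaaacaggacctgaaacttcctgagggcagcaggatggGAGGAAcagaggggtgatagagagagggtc
Dock2 (chr11:34783906-34784155, minus strand): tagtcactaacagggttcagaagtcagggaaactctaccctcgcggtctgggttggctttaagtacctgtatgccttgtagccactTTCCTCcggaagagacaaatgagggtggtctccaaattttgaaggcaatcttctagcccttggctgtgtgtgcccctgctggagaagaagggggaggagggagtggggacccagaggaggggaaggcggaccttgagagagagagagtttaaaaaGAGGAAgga
Ncf1 (chr5:134229626-134229875, minus strand): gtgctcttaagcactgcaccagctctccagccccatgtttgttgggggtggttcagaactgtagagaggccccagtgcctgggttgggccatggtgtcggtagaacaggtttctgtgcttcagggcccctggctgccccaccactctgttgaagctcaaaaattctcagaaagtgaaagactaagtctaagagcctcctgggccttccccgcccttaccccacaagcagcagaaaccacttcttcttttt
Cyba (chr8:122432941-122433190, minus strand): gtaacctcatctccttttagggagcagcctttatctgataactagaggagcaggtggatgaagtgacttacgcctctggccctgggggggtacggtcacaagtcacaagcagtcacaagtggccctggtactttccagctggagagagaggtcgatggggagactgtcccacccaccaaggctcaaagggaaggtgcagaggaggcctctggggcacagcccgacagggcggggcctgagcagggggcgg
Axl (chr7:25788734-25788983, minus strand): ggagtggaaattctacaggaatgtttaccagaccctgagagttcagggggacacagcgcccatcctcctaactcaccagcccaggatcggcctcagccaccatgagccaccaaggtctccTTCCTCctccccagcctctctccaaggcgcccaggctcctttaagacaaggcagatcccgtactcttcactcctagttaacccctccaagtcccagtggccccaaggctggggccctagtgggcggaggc
C1qb, with a log2 ratio of −2.65, had a single match close to its start, and Dock2, with 1 count against 288, had 2. Ncf1, which was also near 0 in Gata2Venus-negative cells, had 0, as had Cyba, whose log2 ratio was 0.19. Axl, at 0.36, had 1.

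When a coefficient of variation of 0.4 between libraries was assumed beside counting error, 10 members were past the rule and lower and 1 was higher, beside 5.51% and 5.25% of all measured genes. The members no longer past it were Cd68, C1qc, Tyrobp, Lyn, Laptm5 and Aif1. Under scaling by total counts Cd68 was not past the rule.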

How the data were processed

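The authors deposited raw counts, whole numbers for each gene symbol, with 1 table for each of the 2 libraries. RNA was extracted with the mirVana kit and amplified as SMARTER cDNA, per the labels' protocols. TopHat, Cufflinks, HTSeq and build mm10 are named per the submitters' processing notes, and their versions, the annotation and the strand setting are not stated there. Rows for reads given to no gene were left out of library sizes: alignments that are not unique (45.5% of all entries in the Gata2Venus-negative and 48.2% in the Gata2Venus-positive table), no feature (5.93% and 7.996%) and ambiguous (0.474% and 0.412%).

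Counts were scaled by TMM (factors 1.03 and 0.974; edgeR 4.0.16, R 4.3.3) over all 24062 genes. Every member was described by name. From the other lists at most 4 genes past the rule with intervals farthest from equal expression were named, or else the 2 most abundant, with partners and close copies of members. Other genes (Ptpn6, Dock1, Dock5, Maff, Slc18a2, Hbb-y, Hbb-bh1, Hba-x and genes at or near 0) were named after their values were seen. A few list genes are not reported here by name but stay in every count. Medians used 0.5 counts added to each gene. Exon lengths, overlaps and transcripts came from GENCODE vM21. The members and lists were chosen with earlier results of these data known. Alternatives were other scalings, filters, fold limits, added counts, thinning and an assumed spread. The calculations were tested on simulated data.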

Additional observations from a re-analysis of the deposited data

How the results depend on the processing

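Counts below are given as lower then higher in Gata2Venus-negative cells. The main rule gave 16 and 1 members, and 1545 and 1582 genes in all. Scaling with DESeq2 1.42.0 size factors, with total counts or without the 100 most abundant genes, and thinning the deeper library, gave 15 or 16 and 1 members. Total counts moved the median of all genes by 0.08 on the log2 scale. A filter of 1 CPM and 10 counts gave 18 and 1 members and 2484 genes lower, and no filter 18 and 1 members and 2503 genes lower. A filter of 50 CPM gave 9 and 0 members and 545 and 629 genes. An interval beyond 4-fold gave 10 and 1 members and 751 and 744 genes. A 2-fold ratio without the interval gave 17 and 2 members, adding Fcgr1 and Mertk. An assumed coefficient of variation of 0.4 gave 10 and 1 members and 691 and 659 genes. Without genes at 3 or fewer counts in either library, an alternative added after seeing the data, there were 11 and 0 members. The alternatives' own construction (stricter or looser limits, fewer genes) sets these counts. The members' median log2 ratio of −1.89 ranged from −1.34 to −1.90 over its alternatives. None of the 28 measured members' ratios changed sign under another scaling or with 2 counts added. No paired analysis was possible because each group has 1 library, and for the same reason no library could be left out. Depth limits what can be said of members under 20 counts (Cd163, Lyz1 and Fcgr2b) and of those at 0 or 1 count in a library.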
